A study of Mus musculus with 4 samples.

Results

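Matricellular proteins are secreted into the extracellular matrix, where they bind collagens, growth factors and cell-surface receptors without forming the main load-bearing fibres. They include the thrombospondins, the tenascins, the related adhesion proteins periostin and TGFBI, and the calcium-binding proteins of the SPARC family. Their genes are known for high activity in development, wound repair and fibrosis, and in skeletal muscle they are made during regeneration. The 10 genes described here are Thbs1, Thbs2, Thbs3, Tnc, Postn, Tgfbi, Sparc, Sparcl1, Smoc1 and Smoc2, taken by name out of 49585 annotated genes in the count tables. All 10 were found and all 10 had enough counts to be tested.

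The cells were C2C12, a mouse myoblast line of C3H origin, kept as proliferating myoblasts in medium with 10% serum. In 2 libraries C/EBPβ, the bZIP transcription factor made from Cebpb, was overexpressed from a retrovirus, and in 2 the cells carried the empty retroviral vector pLXSN. Both groups had been selected in 1200 μg/ml G418 for 7 days, were used as pools of stable cells and then grew for 48 h. The line is a model of myoblasts in culture. Nothing in the labels ties the replicates to separate transductions. The p-values therefore reflect the spread between these 4 samples alone, and that spread may be technical.

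The C/EBPβ libraries held 38656497 and 92027838 counts assigned to genes, and the empty vector libraries held 40912955 and 37566321. Levels are given in CPM, counts scaled to a common library size over tested genes with TMM factors. Cebpb stood at 483 and 473 CPM in the C/EBPβ libraries, against 85.0 and 76.8 CPM in the empty vector libraries, in the direction of the labels. RNA from the endogenous gene and from the vector cannot be told apart in these counts. Of 8 myoblast markers 6 were lower with C/EBPβ and 2 were higher, beside 10.8% lower and 14.1% higher over all tested genes. Myog stood at 5.32 and 10.9 CPM with C/EBPβ, against 61.0 and 51.4 CPM in empty vector cells. It fell most of the 8 markers, whose median log2 fold change of C/EBPβ over empty vector was -0.65. The 2 higher ones were Pax7 (1.92-fold) and Myf5 (1.52-fold).

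Sequence just upstream of the start site is shown for Tgfbi and Postn, whose RNA rose most, and for Tnc, whose RNA did not pass the test. The sequences are from RefSeq on GRCm38.p6, run 5′ to 3′ on the gene's strand, and end at the base before the annotated start. Capitals mark the 8-letter C/EBP-type motif TTGCNNAA, searched on both strands.
Tgfbi, chr13:56609336-56609585, plus strand: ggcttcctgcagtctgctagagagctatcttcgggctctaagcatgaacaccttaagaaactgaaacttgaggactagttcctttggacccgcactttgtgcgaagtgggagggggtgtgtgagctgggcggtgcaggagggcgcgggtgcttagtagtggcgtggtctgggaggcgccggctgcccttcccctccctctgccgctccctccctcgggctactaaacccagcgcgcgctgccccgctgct
Postn, chr3:54360857-54361106, plus strand: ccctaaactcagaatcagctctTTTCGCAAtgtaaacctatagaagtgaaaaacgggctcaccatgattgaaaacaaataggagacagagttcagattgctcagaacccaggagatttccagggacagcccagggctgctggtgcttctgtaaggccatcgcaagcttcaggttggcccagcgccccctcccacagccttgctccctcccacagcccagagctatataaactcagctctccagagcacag
Tnc, chr4:64047016-64047265, minus strand: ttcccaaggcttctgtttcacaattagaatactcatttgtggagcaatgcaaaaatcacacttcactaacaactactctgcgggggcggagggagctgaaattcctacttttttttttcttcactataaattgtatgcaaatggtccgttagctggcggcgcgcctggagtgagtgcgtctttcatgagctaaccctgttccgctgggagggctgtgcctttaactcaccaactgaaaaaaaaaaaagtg
The Postn window shown held 1 match, whose first base lies 228 bases before the start site. Postn has another window in RefSeq, chr3:54359017-54359266, which held none. The windows of Tgfbi and Tnc held none. Among all 32851 upstream windows of 250 bases in the RefSeq table, 9.6% held this motif. Of the 10 genes 6 had an entry in that table, with 8 windows in all, and the Postn window shown was the single one with a match. The AP-1-type motif TGANTCA, which reads the same on both strands, was in 0 of the 8 windows and in 6.7% of all windows. The SMAD-type motif CAGACA, searched on both strands, was in 3 of the 8 windows, those of Thbs2, Sparc and the second window of Tnc, and in 17.1% of all windows. The letters TATAAA, searched on the gene's strand, were in 3 of the 8 windows. They were 26 bases before the start in the Postn window shown and 126 bases before it in the Tnc window shown. In the second window of Tnc they were 205 bases before the start. They are in 7.6% of all windows and were absent from the other Postn window. A match describes letters in this window and is not evidence of binding.

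Matricellular RNA was more abundant in C/EBPβ cells. Of the 10 genes 8 rose at an adjusted p under 0.05 and 0 fell, while 14.1% of the 15078 tested genes were called higher and 10.8% lower. The 10 genes were chosen with earlier results of these data known. The shares here therefore describe the set and are no test of it. Tgfbi rose 33.1-fold, Postn 17.7-fold and Sparcl1 14.8-fold, from low or modest levels in empty vector cells. Sparc and Thbs1, which were abundant in both groups, rose 2.09-fold and 2.34-fold. Tnc and Smoc1 were not called. The median log2 fold change of the 10 genes was 1.97, beside 0.00055 over all tested genes. Of the 10 genes 7 were called and at least 2-fold higher, as were 6.24% of all tested genes. Both C/EBPβ libraries lay above both empty vector libraries for 9 of the 10, which held for 33.3% of all tested genes, and both lay below for none of the 10, beside 32.9% of all tested genes. With each library left out in turn, between 7 and 9 of the 10 were called higher and 0 lower. Adjusted p-values are from the quasi-likelihood test of edgeR with Benjamini-Hochberg adjustment over all tested genes, and fold changes divide C/EBPβ by empty vector.

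**Figure D1:**
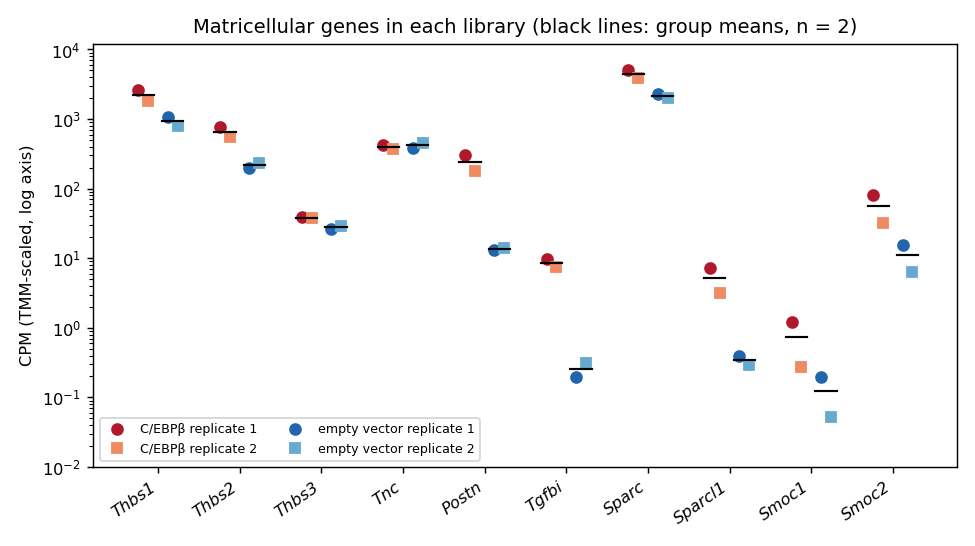
CPM of each matricellular gene (log axis) in the 4 libraries, with C/EBPβ to the left of empty vector at each gene and black lines at the group means (n = 2 each). For 9 of the 10 genes both C/EBPβ libraries lie above both empty vector libraries; for Tnc the groups overlap.

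Thrombospondin-1, the product of Thbs1, is a trimeric glycoprotein known for activating latent TGF-β and for inhibiting angiogenesis. Thbs1 (ENSMUSG00000040152, chromosome 2 from 118111876 to 118127133, plus strand of GRCm38) stood at 2593 and 1822 CPM in C/EBPβ libraries, against 1080 and 807 CPM in empty vector libraries. The groups did not overlap, and replicate 1 was the higher library in each. Its log2 fold change was 1.23 (SE 0.19, adjusted p = 0.00245). Alone it took 0.256% and 0.182% of all counts in C/EBPβ libraries, against 0.109% and 0.0813% in empty vector libraries.

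Thrombospondin-2, the other trimeric thrombospondin, is likewise anti-angiogenic and takes part in collagen fibril assembly. Thbs2 (ENSMUSG00000023885, chromosome 17 from 14665500 to 14694262, minus strand) had 773 and 549 CPM with C/EBPβ, against 196 and 235 CPM with empty vector. Every C/EBPβ value was more than double any control value (log2 fold change 1.62, SE 0.17, adjusted p = 3.09e-04). Thbs2 RNA per kilobase of exon was 30.6% and 30.9% of that of Thbs1 in C/EBPβ libraries, against 18.6% and 29.9% in empty vector libraries. Empty vector replicate 1 thus stood apart from the other 3 libraries in this ratio.

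Thrombospondin-3 belongs to the pentameric branch of the family. Thbs3 (ENSMUSG00000028047, chromosome 3 from 89215180 to 89226837, plus strand) stood at 38.5 and 38.1 CPM in C/EBPβ cells, against 26.2 and 29.3 CPM in empty vector cells. This was the smallest change among the called members, with close replicates in both groups (log2 fold change 0.47, SE 0.10, adjusted p = 0.00927). It was not past a test against a 1.5-fold change (adjusted p = 1, and 4.21e-04 to 1 over 13 alternatives). Mtx1 lies across Thbs3 on the opposite strand, and reads were counted by strand.

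Tenascin-C is a hexameric glycoprotein of developing and injured tissue that modulates adhesion to fibronectin. Tnc (ENSMUSG00000028364, chromosome 4 from 63959785 to 64047015, minus strand) had 422 and 374 CPM in C/EBPβ libraries, against 385 and 458 CPM in empty vector libraries. The groups overlapped, and both the highest and the second-lowest value were controls. The log2 fold change was -0.08 (SE 0.11, adjusted p = 0.647), and its sign turned without C/EBPβ replicate 2 (0.0033) and without empty vector replicate 2 (0.046). Tnc RNA per kilobase was 12.7% and 16.0% of that of Thbs1 with C/EBPβ, against 27.8% and 44.3% with empty vector.

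Periostin and TGFBI share a structure of repeated fasciclin-type domains, bind integrins and collagens, and are classical TGF-β-inducible matrix proteins. Postn (ENSMUSG00000027750, chromosome 3 from 54361109 to 54391037, plus strand) stood at 305 and 177 CPM in C/EBPβ libraries, against 13.03 and 14.2 CPM in empty vector libraries. The controls were close together, while C/EBPβ replicate 1 was 1.73 times replicate 2. The log2 fold change was 4.14 (SE 0.24, adjusted p = 1.93e-05). Its length-scaled level ranked 2282nd of the tested genes in C/EBPβ cells and 10458th in empty vector cells.

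Tgfbi (ENSMUSG00000035493, chromosome 13 from 56609603 to 56639339, plus strand) reached 9.62 and 7.42 CPM with C/EBPβ, against 0.194 and 0.317 CPM with empty vector. These control levels rest on 8 and 12 counts, and the C/EBPβ levels on 367 and 682. Its log2 fold change of 5.05 (SE 0.28, adjusted p = 1.36e-05) was the largest of the 10, ranking 79th among all tested genes. The ratio of pooled CPM was 31.5 with a 95% counting interval of 20.3 to 51.8, which covers counting error only. Despite this rise Tgfbi stayed far below Postn. Postn RNA per kilobase was 9.77 and 7.33 times that of Tgfbi in C/EBPβ libraries, against 20.6 and 13.8 times in empty vector libraries.

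SPARC, also called osteonectin, is a collagen-binding protein needed for normal collagen deposition. Sparc (ENSMUSG00000018593, chromosome 11 from 55394500 to 55423183, minus strand) was the most abundant of the 10, at 5106 and 3914 CPM in C/EBPβ libraries, against 2296 and 2025 CPM in empty vector libraries. The groups did not overlap (log2 fold change 1.06, SE 0.15, adjusted p = 0.00162). Sparc alone made up 0.504% and 0.391% of all counts with C/EBPβ, against 0.231% and 0.204% with empty vector. Among tested genes its length-scaled level ranked 11th in C/EBPβ cells and 35th in empty vector cells.

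Sparcl1 encodes hevin, a SPARC relative known from brain and vessels. Sparcl1 (ENSMUSG00000029309, chromosome 5 from 104079111 to 104113733, minus strand) had 7.21 and 3.20 CPM in C/EBPβ libraries, against 0.389 and 0.291 CPM in empty vector libraries. C/EBPβ replicate 1 was 2.25 times replicate 2, and both lay above the controls, which held 16 and 11 counts. The log2 fold change was 3.88 (SE 0.47, adjusted p = 6.23e-04), or 3.22 without C/EBPβ replicate 1, where the fold was 9.31 in place of 14.8. Even so, Sparcl1 RNA per kilobase was only 0.182% and 0.105% of that of Sparc with C/EBPβ, against 0.0218% and 0.0185% with empty vector.

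SMOC1 and SMOC2 are SPARC-related calcium-binding proteins of basement membranes and modulate growth-factor signalling. Smoc2 (ENSMUSG00000023886, chromosome 17 from 14279506 to 14404790, plus strand) stood at 82.0 and 32.0 CPM in C/EBPβ libraries, against 15.5 and 6.40 CPM in empty vector libraries. Replicate 1 was more than double replicate 2 in both groups, and the groups did not overlap. Its log2 fold change was 2.36 (SE 0.48, adjusted p = 0.00793). With empty vector replicate 2 left out Smoc2 no longer passed (1.86, adjusted p = 0.0577, and 4.03e-80 to 0.0577 over 13 alternatives). Its fold, 5.13 with all libraries, became 2.90 without C/EBPβ replicate 1 and 8.81 with the first empty vector library removed.

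Smoc1 (ENSMUSG00000021136, chromosome 12 from 81026808 to 81186414, plus strand) was barely detected, with 46 and 25 counts in C/EBPβ libraries, against 8 and 2 in empty vector libraries. These are 1.21 and 0.272 CPM with C/EBPβ, against 0.194 and 0.0529 CPM with empty vector. The values did not overlap, but C/EBPβ replicate 2 lay close to empty vector replicate 1. The log2 fold change of 2.32 (SE 0.88) did not pass (adjusted p = 0.0931). Its adjusted p ranged from 2.26e-07 to 0.394 over 11 alternatives, and among those where it passed were DESeq2 (0.0399) and edgeR with no low-count filter (7.16e-06). Both ends of that range come from fits with 1 C/EBPβ library, where the spread is estimated from the empty vector libraries alone. They are 2.26e-07 without C/EBPβ replicate 2 and 0.394 without C/EBPβ replicate 1. The ratio of pooled CPM was 4.26 (95% counting interval 2.19 to 9.27), an interval that leaves out the spread between replicates.

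**Figure D2:**
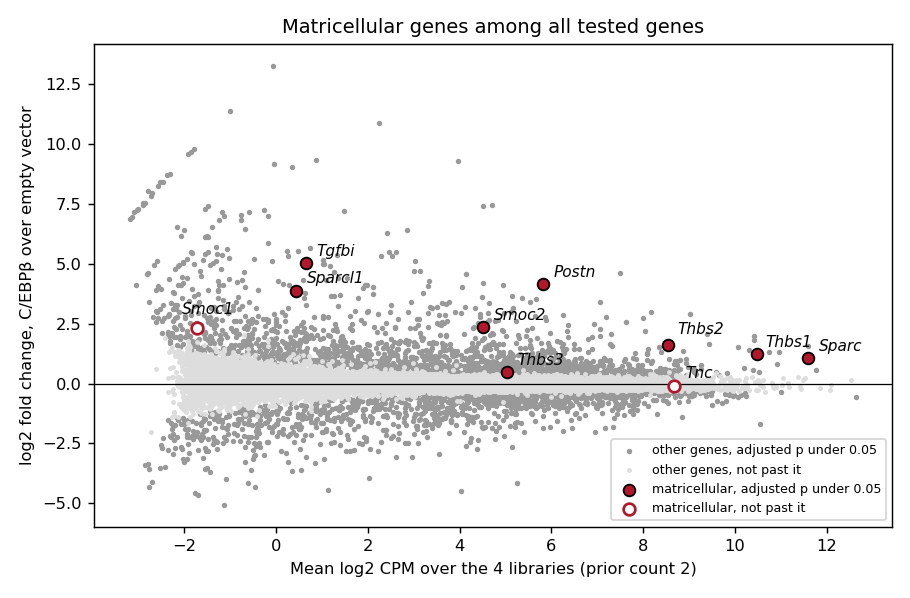
Log2 fold change of C/EBPβ over empty vector against mean log2 CPM over the 4 libraries, for all 15078 tested genes, with the 10 matricellular genes ringed. Tgfbi, at 5.05, lies highest of the 10, Sparc lies farthest right at 1.06, and the open circles of Tnc (-0.08) and Smoc1 (2.32) did not pass the test.

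Length-scaled levels, CPM per kilobase of annotated exon sequence, put the 10 genes on a common scale. In C/EBPβ cells the order was Sparc, Thbs1, Thbs2, Tnc, Postn, Smoc2, Thbs3, Tgfbi, Sparcl1, Smoc1. In empty vector cells it was Sparc, Thbs1, Tnc, Thbs2, Thbs3, Smoc2, Postn, Sparcl1, Tgfbi, Smoc1. Sparc averaged 1191 ± 222 CPM per kilobase with C/EBPβ and 570 ± 50.5 with empty vector (SD, n = 2 each). Thbs1 averaged 363 ± 89.8 and 155 ± 31.7 on the same scale.

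The changes in order concerned genes of the middle and lower range. Thbs2, at 131 and 92.7 CPM per kilobase with C/EBPβ, stood above Tnc at 54.3 and 48.1 there, whereas with empty vector Thbs2 had 33.0 and 39.8 and Tnc 49.5 and 58.9. Postn, at 35.1 and 20.3 with C/EBPβ, against 1.497 and 1.64 with empty vector, stood above Smoc2 and Thbs3 in each C/EBPβ library and below both in each empty vector library. The ranges of Postn and Smoc2 overlapped across the C/EBPβ libraries, since both were higher in replicate 1. In empty vector cells the order of Thbs3 and Smoc2, and that of Sparcl1 and Tgfbi, differed between the 2 libraries.

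Summed over the 10 genes, the length-scaled level was 2038 and 1518 CPM per kilobase in C/EBPβ libraries, against 879 and 777 in empty vector libraries. Sparc made up 66.1% and 68.1% of that sum with C/EBPβ, against 69.0% and 68.9% with empty vector. Postn accounted for 1.72% and 1.34% with C/EBPβ, against 0.170% and 0.211% with empty vector. The share of Tnc was 2.67% and 3.17% with C/EBPβ, against 5.63% and 7.59% with empty vector. The pool was thus mostly Sparc and Thbs1 in all 4 libraries, while the genes with the largest folds were a small part of it.

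**Figure D3:**
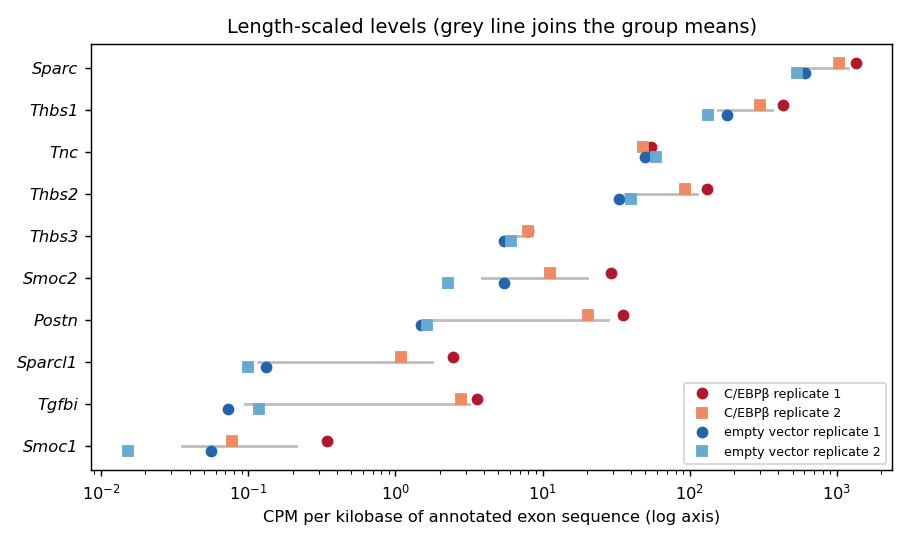
CPM per kilobase of annotated exon sequence (log axis) for each gene and library, ordered by the empty vector mean, with a grey line joining the group means. Sparc and Thbs1 stand at the top in both groups, and Postn and Tgfbi span the widest gaps, from means of 27.7 and 3.18 with C/EBPβ against 1.57 and 0.0955 with empty vector.

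In all 8 called members C/EBPβ replicate 1 was higher than replicate 2. The same held for 82.3% of the 2129 genes called higher across the transcriptome. The ratio of replicate 1 to replicate 2 ran from 1.01 for Thbs3 to 2.56 for Smoc2 among the called members. Cebpb differed little between these libraries, and Myog was lower in replicate 1.

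**Figure D4:**
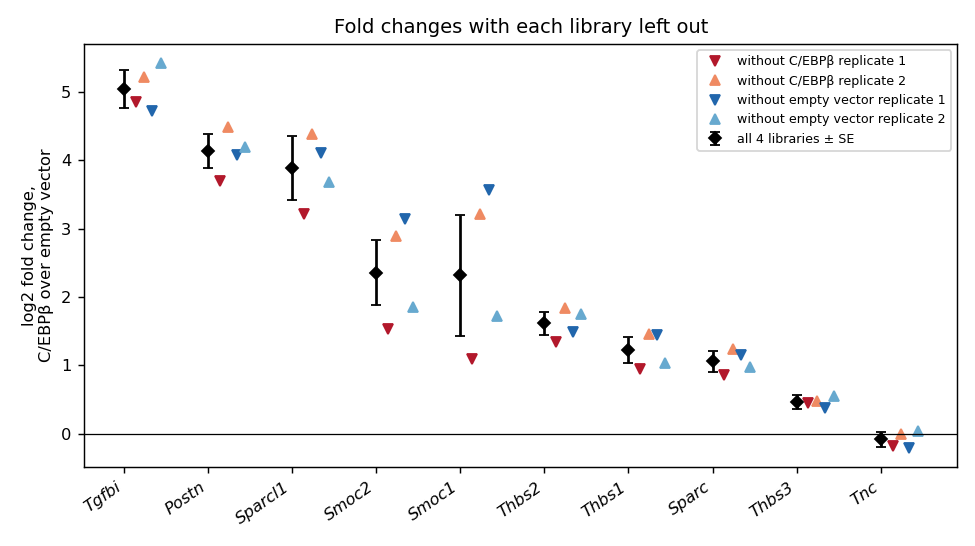
Log2 fold change of each matricellular gene with all 4 libraries (black diamond, bar ± SE) and with each library left out (triangles). Smoc2 and Smoc1 spread widest, from 1.54 to 3.14 and from 1.09 to 3.57, and Tnc lies around 0.

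The authors' deposited table does not state its direction or its libraries. Its mean normalized counts for Sparcl1 (597) and Postn (16541) lay above the counts of those genes in each of the 4 libraries. Those means are scaled for depth, while these counts are not. For Sparcl1 the mean also lay above the 569 counts of both C/EBPβ libraries together, with 27 in both empty vector libraries. That table thus does not appear to rest on these counts alone. It gave positive log2 fold changes for the same 9 genes and a negative one for Tnc. In the authors' deposited table they were 4.69 for Tgfbi, 3.99 for Postn, 3.55 for Sparcl1 and 2.28 for Smoc2. The authors' deposited table listed Smoc1 at 1.83 with an adjusted p of 0.0144, and Tnc at -0.12 with an adjusted p of 0.523.

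A list of 16 other genes held relatives of the 10 together with fibulins, Spp1 and Ecm1. Of these, 9 could be tested, and 7 were higher, 0 lower and 2 not called, with a median log2 fold change of 0.94. The shares to set beside this list and the following ones are 14.1% higher and 10.8% lower over all tested genes. These lists too were chosen with earlier results of these data known. Most of the 7 were from outside the families of the 10 genes: Fbln1, Fbln2, Fbln5, Spp1 and Ecm1. Among the relatives themselves Tnxb and Fstl1 rose. The thrombospondin Comp (0.27, adjusted p = 0.665) and the SPARC relative Spock2 (-0.09, adjusted p = 0.743) were not called. Thbs4, Tnr, Tnn, Spock1, Spock3 and the fasciclin-domain genes Stab1 and Stab2 had too few counts to be tested. Fbln1, encoding fibulin-1, stood at 205 and 185 CPM in C/EBPβ libraries, against 71.2 and 72.8 CPM in empty vector libraries (1.43, adjusted p = 2.3e-05). Fstl1, a secreted SPARC relative, had 2074 and 1590 CPM with C/EBPβ, against 645 and 610 CPM with empty vector (1.55). Tnxb, encoding tenascin-X, rose by 2.56 on the log2 scale. Tnn, encoding tenascin-W, was singled out after its counts were seen: it had 36 and 16 counts in C/EBPβ libraries and 0 in both empty vector libraries. Taking 3 counts as the upper limit for the 2 empty vector libraries together, Tnn was at least 10.4-fold higher, or at least 4.55-fold without C/EBPβ replicate 1 and at least 24.4-fold without C/EBPβ replicate 2.

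Collagens, fibronectin and their partners form the network that matricellular proteins bind. Of 17 tested genes of this list 15 were higher, 0 were lower and the median was 1.59. Col6a2 and Col6a1, chains of collagen VI, had log2 fold changes of 3.40 and 2.97, and Has2, a hyaluronan synthase, of 1.78 (adjusted p = 3.86e-05 or less for each). Of 20 genes for TGF-β ligands, receptors, binding proteins and response, 16 were higher and 0 lower (median 0.75). Cnn1, a smooth-muscle calponin used as a TGF-β response gene, rose by 4.71, Ltbp2, a latent TGF-β binding protein relative, by 1.54, and Tgfbr3, betaglycan, by 1.41. Cnn1 was 5.33 without empty vector replicate 1.

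Receptors for matricellular proteins moved both ways. Of 23 tested 7 were higher, 6 lower and 10 not called, beside 14.1% higher and 10.8% lower over all tested genes. The median of 0.12 lay near that of all genes. Egfr, a receptor reported to bind tenascin-C, stood at 49.9 and 42.3 CPM with C/EBPβ, against 16.8 and 16.2 CPM with empty vector (1.48). Vldlr, a lipoprotein receptor that binds thrombospondin-1, had 1.58, and Sdc1, a syndecan, 0.86. In the other direction, the laminin-binding integrin chain Itga6 fell by 1.56, Itgb8, a chain of a TGF-β-activating integrin, by 1.26, and Cd36 by 2.34. Cd36 encodes a thrombospondin receptor and was low throughout, at 0.157 and 0.207 CPM with C/EBPβ, against 1.05 and 0.899 CPM with empty vector. Cd47, the other classical thrombospondin-1 receptor and named here after its values were seen, had 205 and 201 CPM with C/EBPβ, against 146 and 136 CPM with empty vector (0.53, adjusted p = 0.00228).

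Proteases that can cut matricellular proteins, with their inhibitors, were higher in 10 of 14 tested genes and lower in 1 (median 0.64). Adamts5, an aggrecan-degrading protease, stood at 169 and 133 CPM with C/EBPβ, against 29.9 and 18.2 CPM with empty vector (2.65). Mmp2, gelatinase A, rose by 1.597. Adamts9 had 83 and 125 counts with C/EBPβ, against 3 and 1 with empty vector (5.02, or 5.90 without empty vector replicate 1). Its ratio of pooled CPM was 31.2 (95% counting interval 12 to 116, counting error only). Plau, encoding urokinase, fell by 0.73. Its call was lost in the test against a 1.5-fold change (adjusted p = 0.385, and 3.69e-11 to 0.385 over 13 alternatives).

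**Figure D5:**
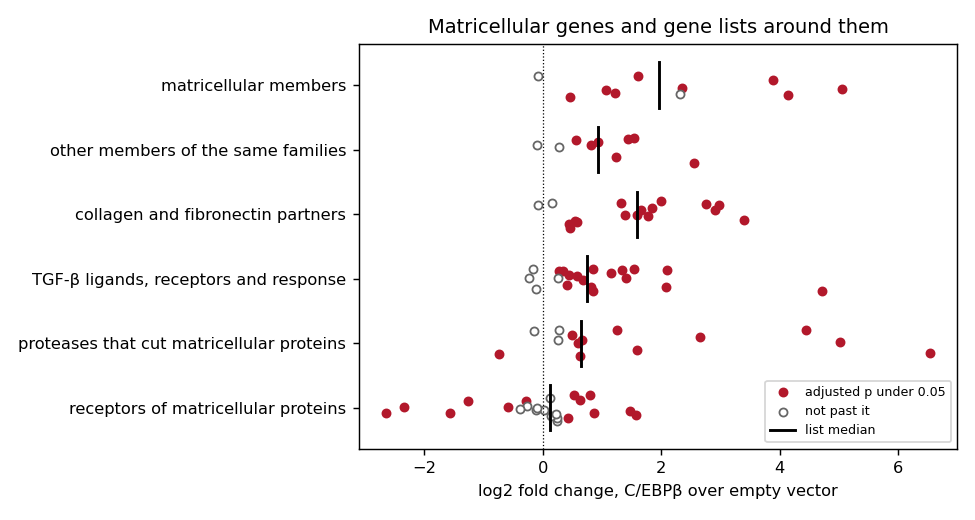
Log2 fold change of every tested gene in the matricellular set and 5 lists around it, with filled points past an adjusted p of 0.05 and black bars at list medians. The medians are 1.97 for the matricellular genes, 0.94 for related families, 1.59 for collagens and partners, 0.75 for TGF-β genes, 0.64 for proteases and 0.12 for receptors.

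Because matricellular genes are active in fibroblasts, vessels and macrophages, markers of these cells were read beside them. Of 8 tested fibroblast and tendon markers 3 were higher and 1 lower, and the list's summed level was 712 and 713 CPM in C/EBPβ libraries, against 803 and 735 CPM in empty vector libraries. That sum is carried by Ly6a, Prrx1 and Scx, which were not called. The median log2 fold change of the tested fibroblast and tendon markers was 0.0036. The lower one was Cd34, at 40.7 and 54.4 CPM with C/EBPβ, against 86.8 and 68.1 CPM with empty vector (0.616-fold, adjusted p = 0.0122). Cd34 did not pass in every alternative, and its log2 fold change ran from -0.93 to -0.51 with a library left out. The higher ones, named like the other markers here after their values were seen, were Pdgfra, Dpt and Mkx. Pdgfra, a receptor for platelet-derived growth factor that marks muscle fibroblasts, had 69.9 and 48.3 CPM with C/EBPβ, against 10.5 and 9.44 CPM with empty vector (5.92-fold, adjusted p = 4.04e-05). Dpt, encoding dermatopontin, rose 6.09-fold (adjusted p = 7.33e-04). Mkx, a tendon transcription factor, rose 2.96-fold (adjusted p = 0.00643), but did not pass without empty vector replicate 2 (adjusted p = 0.0518, and 1.78e-05 to 0.0518 over 12 alternatives). Of 10 macrophage and leukocyte markers 4 could be tested and 3 were higher. They summed to 36.7 and 38.7 CPM with C/EBPβ, against 21.5 and 19.4 CPM with empty vector, a sum made up mostly of Cd14, while Tyrobp, Adgre1 and Itgam had 0 counts in every library. Lyz2, a lysozyme gene, had 286 and 448 counts with C/EBPβ, against 6 and 2 with empty vector. Its 59.0-fold rise (adjusted p = 4.76e-05) was larger than that of any of the 10 matricellular genes, and became 111-fold without empty vector replicate 1. The ratio of its pooled CPM was 55.1 (95% counting interval 27.8 to 128, counting error only). Csf1r, a macrophage growth-factor receptor, rose 2.51-fold (adjusted p = 0.0235), or 3.997-fold without empty vector replicate 1, and did not pass without empty vector replicate 2 (adjusted p = 0.0987, and 2.87e-05 to 0.132 over 12 alternatives). Of 8 endothelial markers 2 could be tested and 1 was lower, with sums of 9.36 and 9.18 CPM with C/EBPβ, against 13.7 and 12.5 CPM with empty vector, and Emcn had 0 counts. The part of these markers in the matricellular changes was not tested. In bulk RNA a change in the number of cells of a type and a change in RNA per cell cannot be told apart.

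By the distance between log2 CPM profiles centred over the 4 libraries, the tested genes outside the set most like Tgfbi were Pla2g2d, Col27a1 and Fignl2. Their distances on the log2 scale were 0.371, 0.403 and 0.407. The profiles include a prior count of 2, which shrinks differences for genes with few counts. In the test the log2 fold changes of Pla2g2d, Col27a1 and Fignl2 were 5.71, 5.34 and 6.13, against 5.05 for Tgfbi. Col27a1, encoding a fibrillar collagen chain, stood at 35.05 and 26.0 CPM with C/EBPβ, against 0.608 and 0.899 CPM with empty vector. Pla2g2d and Fignl2 were lower in level, at 1.99 and 2.20 CPM and at 2.23 and 1.72 CPM with C/EBPβ, and each had at most 2 counts in an empty vector library. The likeness is over 4 libraries, 2 in each group, and is given as a description.

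Smoc2 and Thbs2 lie 261 kb apart on chromosome 17. The 2 genes that GENCODE M21 places between them are absent from the count tables. Within 500 kb on the outer sides, and overlapping, 7 other genes were tested. Of these Wdr27 and Ermard were higher, with log2 fold changes of 1.89 and 0.43, Afdn and Dact2 were lower, at -0.45 and -1.27, and 3 were not called. The value for Wdr27 rests on few counts, 28 and 43 in C/EBPβ libraries against 4 and 8 in empty vector libraries. Over all tested genes 14.1% were called higher and 10.8% lower. This neighbourhood was looked at after the values were seen.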

How the data were processed

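Messenger RNA was measured in 2 C/EBPβ and 2 empty vector libraries of C2C12 myoblasts, from stranded libraries per the labels' protocols. Sample titles gave the groups and replicate numbers. The submitters' processing notes name HISAT2 2.0.4 and GRCm38. The deposited counts are whole numbers per gene from featureCounts 1.5.1 with GENCODE M12, run for paired reads with reverse strand and no option for multi-mapping reads, per the file headers. The processing notes give featureCounts 1.4.6 instead. The authors' deposited table carries DESeq2 column names: log2 fold changes and their errors, p-values and adjusted p-values, a mean signal per gene and a test score. It was described and not retested.

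Symbols came from that table and the reference gene names, which matched 49326 of 49585 identifiers. filterByExpr of edgeR 4.0.16 in R 4.3.3 (minimum count 10, minimum total 15) left 15078 genes. The quasi-likelihood test of edgeR used TMM scaling and no covariate, with Benjamini-Hochberg adjustment over all tested genes and calls at 0.05. The SE is the log2 fold change divided by the square root of the F statistic. CPM used TMM factors, except for marker sums, untested genes and pooled ratios, which used library totals. At these depths 1 count equals 0.0259 and 0.0109 CPM in C/EBPβ libraries and 0.0244 and 0.0266 CPM in empty vector libraries. Lengths are those of merged exons in the count files. Length-scaled ratios between genes inherit the annotation of each gene's exons. The test was also run on simulated counts with the same spread for all genes. That run does not give the error rates of the test for these data.

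The 10 genes and the lists around them were chosen with earlier results of these data known. Named genes were the 10, Cebpb, Myog, the 3 called genes of lowest adjusted p, or fewer, per list and direction, and the 3 profiles nearest to the called member with the largest rise. No member was called lower, so no profile was sought for a fall. Alternatives were another scaling, filter or test (limma 3.58.1, DESeq2 1.42.0), a test against a 1.5-fold change, a replicate block, thinning of the deepest library, and leaving out each library. No list test was run. Promoter sequences are from RefSeq on GRCm38.p6. Protein sequences were not used here.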

Additional observations from a re-analysis of the deposited data

How the results depend on the processing

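Over 127 refits of the 10 genes under the 13 alternatives, 119 kept both direction and call. Of the others, 2 lost the call (Thbs3 against a 1.5-fold change, Smoc2 without empty vector replicate 2), 4 gained it (Smoc1), and 2 turned the sign of Tnc, at 0.0033 and 0.046. The cause was not tested. Tnc ranged from -0.21 to 0.046 with a library left out. Against a 1.5-fold change 808 genes were higher and 451 lower, in place of 2129 and 1630. With a library left out between 1527 and 2076 genes were higher and between 966 and 1386 lower, fewest without C/EBPβ replicate 1, where 3 libraries were fitted. A fit with 1 library in a group assumes that it varies like the other group, from which alone the spread comes. Smoc1 was not tested with the stricter filter or the thinned library, nor Sparcl1 with the stricter filter, since they fell below the minimum.

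The shared replicate numbers give no stated pairing. The differences of replicate 1 minus replicate 2 correlated between the groups with r = 0.147 over 15078 genes. With the replicate number as a block, 2573 genes were higher and 1963 lower, and 9 of the 10 members were called higher, the added one being Smoc1 (log2 fold change 2.55, adjusted p = 9.47e-05). Counting depth limits Smoc1, Tgfbi and Sparcl1, with 10, 20 and 27 empty vector counts in total.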
